A study of Homo sapiens with 64 samples.

Results

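The genes described here are immediate early genes of the EGR, NAB and IER families in BEAS-2B cells exposed to budesonide, formoterol or the combination. Their probe sets were found by gene symbol in the array's annotation, and each gene is represented by its brightest probe set, averaged over the 64 arrays. This gave 8 genes (EGR1, EGR3, EGR4, NAB1, NAB2, IER2, IER3 and IER5) of the 18132 genes tested. The selection rule listed 9 genes, and the ninth was not analysed here. The 8 genes had 24 probe sets among them, of 49395 on the array.

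Immediate early genes are transcribed within minutes of a stimulus, without new protein synthesis. EGR proteins are zinc-finger transcription factors that bind GC-rich sites. EGR1 is switched on by growth factors, stretch and wounding through the kinase ERK, which acts on serum response factor and its ETS-family partners at CArG boxes. NAB1 and NAB2 bind EGR proteins and repress the genes these occupy, and NAB2 is itself a described EGR target. IER2, IER3 and IER5 share a name given for fast induction. IER3 acts in cell survival and in ERK signalling, and IER5 acts with the heat-shock factor HSF1.

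BEAS-2B cells are immortalised epithelial cells of the human bronchus. Cells were kept overnight in medium without serum and then received 100 nM budesonide (an inhaled glucocorticoid), 10 nM formoterol (a long-acting beta-2 adrenoceptor agonist, which raises cyclic AMP), both drugs at these doses, or nothing. RNA was taken at 1, 2, 6 and 18 h, with 4 arrays for each of the 16 groups. The controls are labelled as non-stimulated, with no vehicle named in the sources used here. The 4 arrays of a group are described as independent determinations. No label says what separates them, so the p-values cover only the spread among these samples.

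All values are log2 expression of a probe set, and a difference of 1 is a doubling. Array medians lay between 4.87 and 4.95, and no pair of arrays was identical. Over all probe set values the median was 4.90 and the lower quartile 3.02, which serve as marks for dim probe sets. Of 7 epithelial markers, 3 lay above that median (KRT8, KRT18 and CLDN1), while CDH1 at 4.25 and EPCAM at 2.50 lay below it. Of 6 mesenchymal markers 4 lay above it, with VIM at 13.05, and none of 4 leukocyte or 4 endothelial markers did. Actin's 3' minus 5' signal, which grows as RNA degrades, ran from 0.50 to 2.21 between arrays. Differences are given ± standard error, and a gene is called where limma's adjusted p, over all 18132 genes within a comparison, is under 0.05. The number of arrays limits the precision.

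EGR1 was the member with the widest range. It fell with formoterol at 1, 2 and 6 h, it fell less with budesonide at 1 and 2 h, and no group differed from untreated cells at 18 h by the test. The gene lies at chr5:138465479-138469303 in GRCh38.p14. The 250 bases before its start are shown, from RefSeq (GRCh38.p14, chr5:138465229-138465478, plus strand). They hold sites of the kind through which ERK signalling is known to reach the gene, and bases further upstream were not searched.
EGR1: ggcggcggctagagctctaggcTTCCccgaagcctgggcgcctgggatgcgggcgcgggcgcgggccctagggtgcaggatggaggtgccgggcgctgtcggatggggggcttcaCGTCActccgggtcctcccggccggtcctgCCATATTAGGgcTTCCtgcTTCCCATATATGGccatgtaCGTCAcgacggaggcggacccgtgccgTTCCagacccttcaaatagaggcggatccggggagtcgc
Capitals mark the CArG boxes (CC, then 6 letters that are each A or T, then GG), GGAA, the core of ETS-factor sites, and TGACG, the core of sites for CREB and ATF factors that answer to cyclic AMP. GGAA and TGACG are printed as TTCC and CGTCA where they lie on the minus strand. Both strands were searched and overlapping matches were kept. The window held 2 CArG boxes, at 105 to 96 and 83 to 74 bases before the start, and 4 GGAA matches, of which the match at 86 to 83 bases overlaps the second box by 1 base. TGACG stood at 135 to 131 and 66 to 62 bases before the start. CArG boxes occur in 1.16% of the 34941 promoter windows of the same length, GGAA in 92.7% and TGACG, a motif added after the data were seen, in 21.2%. The full cyclic AMP response element TGACGTCA, found in 1.63% of windows, did not match there, and the palindromic consensus of the glucocorticoid response element, found in 1 window of all, did not either. A match describes letters and not binding.

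At 1 h the untreated arrays read 9.84, 9.39, 9.59 and 9.61 for EGR1. Budesonide arrays read 9.16, 8.16, 8.16 and 9.34, and formoterol arrays read 7.15, 6.83, 6.65 and 6.69. With both drugs the values were 6.16, 6.02, 6.23 and 6.51. The 4 groups did not overlap, and the 4 budesonide arrays split into a pair near the untreated values and a pair about 1 unit lower. EGR1 fell by 2.78 ± 0.19 with formoterol (6.85-fold, limma adjusted p = 1.41e-17) and it fell by 3.38 ± 0.19 with the combination (10.4-fold, adjusted p = 8.38e-22). With budesonide it fell by 0.90 ± 0.19 (1.86-fold, adjusted p = 0.00338), and this call was lost without budesonide replicate 2 (0.0929) or replicate 3 (0.0885) and in a fit of the compared arrays alone (0.0926). In these bulk RNA samples, fewer expressing cells and less RNA per cell cannot be told apart.

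At 2 h untreated arrays read 7.47, 7.48, 7.02 and 7.44. Budesonide gave 6.64, 6.49, 6.14 and 6.28. Formoterol gave 4.99, 5.54, 4.69 and 4.47, and the combination gave 4.83, 4.76, 4.29 and 5.18. Formoterol and combination arrays overlapped each other and lay below every budesonide array, which in turn lay below every untreated array. EGR1 fell by 0.96 ± 0.19 with budesonide (1.95-fold, adjusted p = 0.000411), it fell by 2.43 ± 0.19 with formoterol (5.38-fold, 2.19e-15), and it fell by 2.58 ± 0.19 with the combination (5.99-fold, 7.19e-17).

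By 6 h the untreated arrays stood at 8.07, 7.47, 7.38 and 7.30. Formoterol arrays stood at 6.47, 6.95, 6.31 and 6.07, and combination arrays at 5.67, 5.99, 5.84 and 5.63. Budesonide arrays, at 7.34, 7.23, 7.09 and 6.82, overlapped the untreated ones. EGR1 fell by 1.10 ± 0.19 with formoterol (adjusted p = 3.89e-05) and fell by 1.77 ± 0.19 with the combination (3.69e-11), while the budesonide difference of -0.43 ± 0.19 did not pass (0.147). The budesonide difference passed with the replicate number within each time as a block (0.0308). Not every correlation of same-numbered arrays was over 0.1 in that comparison. At 18 h the 16 arrays lay between 7.43 and 8.04. The combination difference was then 0.20 (95% interval -0.19 to 0.59), the budesonide difference 0.08 (-0.31 to 0.47) and the formoterol difference -0.04 (-0.43 to 0.35).

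The effect of each treatment on EGR1 differed between the 4 times by limma's F test. Adjusted p was 9.16e-12 for formoterol, where 4.51% of all genes passed, 5.43e-16 for the combination (22.6% passed) and 0.0107 for budesonide (12.7% passed). Untreated cells themselves differed over time. EGR1 was lower by -2.25 ± 0.19 at 2 h than at 1 h (adjusted p = 2.23e-12), by -2.05 ± 0.19 at 6 h (9.13e-11) and by -1.91 ± 0.19 at 18 h (1.33e-09). It was the 1 member of 8 called lower at 2 h than at 1 h, when 0.0165% of all genes were (3 genes in all). IER2, at -0.40, lay just over the threshold (adjusted p = 0.0501). It passed with dim genes left out (0.0251), without the intensity trend (0.0488) and with the replicate number as a block (0.0139). With the block within each time, IER3 also passed as lower, -0.37 (0.0190), and NAB2 as higher, 0.51 (0.00414). At 6 and 18 h against 1 h, 2 of 8 members were lower, EGR1 and IER2, against 0.143% and 0.138% of all genes. At 6 h the block on replicate number added IER3, -0.48 (adjusted p = 0.00274 against 0.131), and IER5, -0.31 (0.0497 against 0.149). IER3 also passed there with the compared arrays alone (0.0109), and IER5 with the mean of its probe sets (0.0207). At 18 h the block on replicate number added IER3, -0.35 (adjusted p = 0.0376 against 0.336), and IER5, -0.28 (0.0457 against 0.168), and within each time also NAB1, 0.26 (0.0132 against 0.322). Time in culture and the handling of each time point cannot be told apart.

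**Figure D1:**
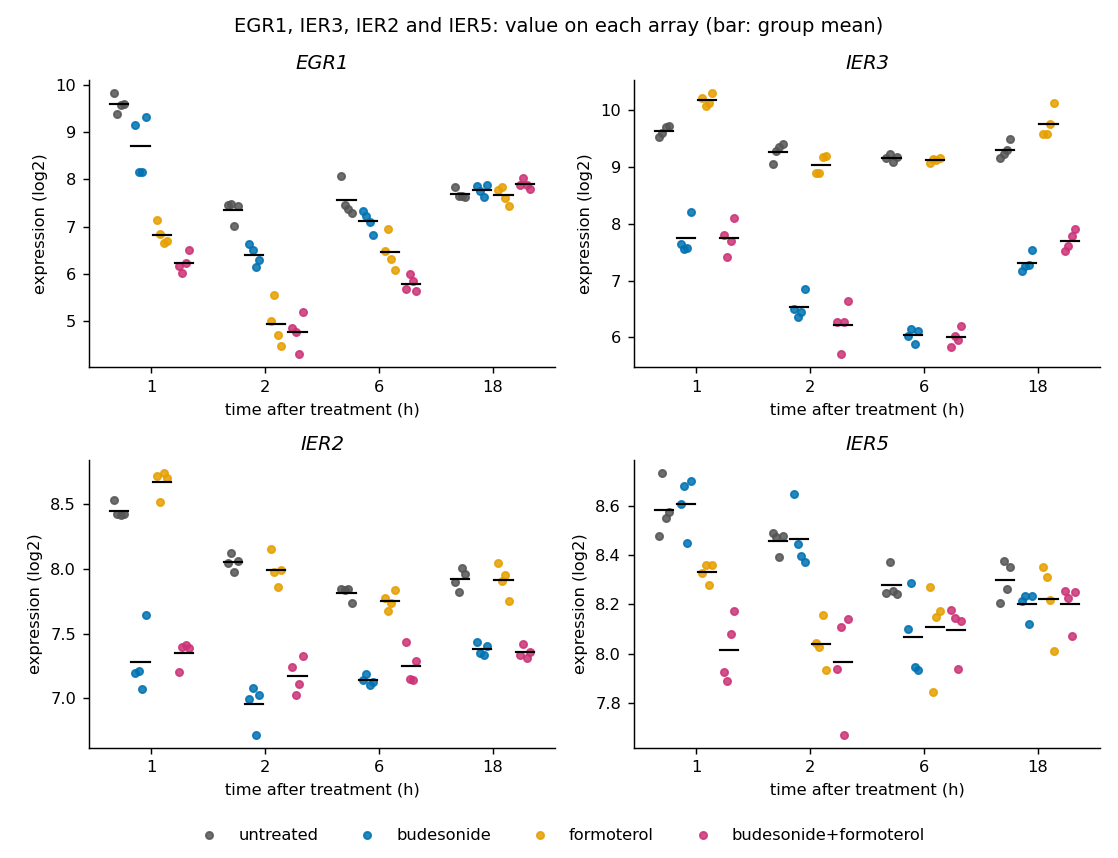
Expression (log2) of EGR1, IER3, IER2 and IER5 on each array against time after treatment (h), with bars at the mean of the 4 arrays of a group. EGR1 was lowest with formoterol and with the combination at 1 and 2 h and all groups met at 18 h, while IER3 and IER2 were low in every group that held budesonide.

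Formoterol and budesonide can be set against each other directly, in a comparison added after the data were seen. EGR1 was lower with formoterol by -1.88 ± 0.19 at 1 h (adjusted p = 2.93e-11), -1.46 ± 0.19 at 2 h (2.68e-08) and -0.67 ± 0.19 at 6 h (0.00939), where the arrays of the groups overlapped. The 6 h call was lost without formoterol replicate 4 (0.0703). Adding formoterol to budesonide lowered EGR1 by -2.48, -1.62 and -1.34 at 1, 2 and 6 h (SE 0.19 each, adjusted p = 1.95e-15, 3.04e-09 and 5.93e-07). Adding budesonide to formoterol gave -0.60 ± 0.19 at 1 h (adjusted p = 0.184), although no array overlapped, and -0.15 ± 0.19 at 2 h. The 1 h difference passed with the replicate number within each time as a block (0.0145), and same-numbered arrays deviated together in that comparison. At 6 h the difference of -0.67 ± 0.19 passed (0.0113) but was lost without formoterol replicate 2, at -0.50 (0.108), and with the mean of all EGR1 probe sets, at -0.28 (0.178).

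EGR1 had 6 probe sets on the array, and they did not all follow the same course. The 3 brightest (means 7.05, 6.20 and 6.14) gave 1 h differences of -2.78, -2.76 and -2.61 with formoterol and -3.38, -3.74 and -3.10 with the combination. Over the 16 group means the other 2 bright sets correlated with the brightest at r = 0.996. The sets with means of 3.34 and 3.14 fell by 1.35 and 0.56 with formoterol at 1 h (limma adjusted p over all probe sets 2.29e-09 and 0.0163). The set with a mean of 4.76 gave -0.16 with formoterol and 0.01 with the combination at 1 h, and neither passed.

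**Figure D2:**
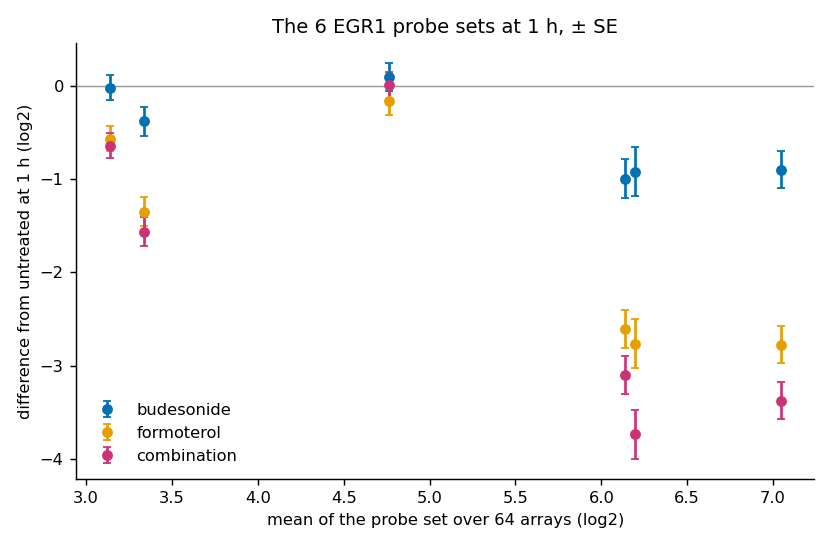
Difference from untreated cells at 1 h (log2, ± SE) for each EGR1 probe set, against its mean over the 64 arrays (log2). The 3 bright sets lie close together for each treatment, 2 dim sets show smaller falls with formoterol and the combination, and the set at 4.76 sits near 0 for all treatments.

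EGR3 and EGR4, zinc-finger factors of the same family, were dim and no comparison called them. EGR3 group means ran from 3.61 to 3.95, and EGR4 group means, at chr2:73290929-73293548, ran from 2.80 to 3.05 around the lower quartile of the array. Of 31 comparisons, EGR3 had 3 with an unadjusted p under 0.05 and EGR4 had 0, and the lowest adjusted p was 0.228 and 0.497. Single arrays moved more than group means did. EGR4 read 3.35 in formoterol replicate 4 at 2 h against 2.64 to 2.69 in the other arrays of the group.

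The corepressors NAB1 and NAB2 moved little. For NAB1 (chr2:190648895-190692766), the 2 h budesonide arrays read 8.19, 8.27, 8.13 and 8.30 and the untreated arrays 8.48, 8.84, 8.41 and 8.64, with no overlap. NAB1 fell by 0.37 ± 0.10 there (adjusted p = 0.0133), and the call was lost without untreated replicate 2 (0.151) or budesonide replicate 3 (0.0589) and in a fit of the compared arrays alone (0.0876). It was also lost with the mean of all NAB1 probe sets (-0.33, adjusted p = 0.317) and with the probe set of highest variance (-0.42, adjusted p = 0.914). With formoterol at 2 h NAB1 read 8.68, 8.71, 8.52 and 8.67, above every budesonide array, a difference of 0.42 ± 0.10 (adjusted p = 0.00162), which was lost with the mean of all NAB1 probe sets (0.279) and with the probe set of highest variance (0.822). The combination against budesonide differed by 0.26 ± 0.10 at 2 h (0.160), which passed with the replicate number as a block (0.0486) and within each time (0.00572). At 1 h formoterol minus budesonide was 0.24 (0.405), which passed with the block within each time (0.0226). Of the 7 NAB1 probe sets, the 2 brightest fell with budesonide at 2 h, and the other 5 gave -0.18 to -0.42 without passing.

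For NAB2 (chr12:57089114-57095476) none of 31 comparisons passed, and 3 had an unadjusted p under 0.05. The closest was the combination at 1 h, where the arrays read 4.78, 4.95, 4.97 and 4.88 against 5.47, 5.40, 5.15 and 5.29 untreated. These did not overlap, and the difference was -0.43 ± 0.17 (adjusted p = 0.266). At 2 h NAB2 was uneven within every group, with replicate 3 highest in each at 6.45 (untreated), 6.05 (budesonide), 6.31 (formoterol) and 5.94 (combination). The same 4 arrays had the highest 3' minus 5' actin signal of their groups, at 1.35 to 1.61. Replicate 1 came next in each group, at 1.30 to 1.51, and its NAB2 values in the same order were 5.30, 5.26, 5.56 and 5.29. The part of RNA quality in the NAB2 spread was not tested. With the replicate number within each time as a block, the 2 h budesonide difference of -0.37 passed (0.0102 against 0.362). NAB2's promoter window held 1 copy of the EGR site GCGGGGGCG, which 4.71% of windows hold. Of the 3 NAB1 windows, 2 that overlap each other held the same 2 matches to GCGGGGGCG, and 1 of them held GCGTGGGCG once, as 0.721% of windows do. Neither EGR motif matched in the EGR1 window.

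**Figure D3:**
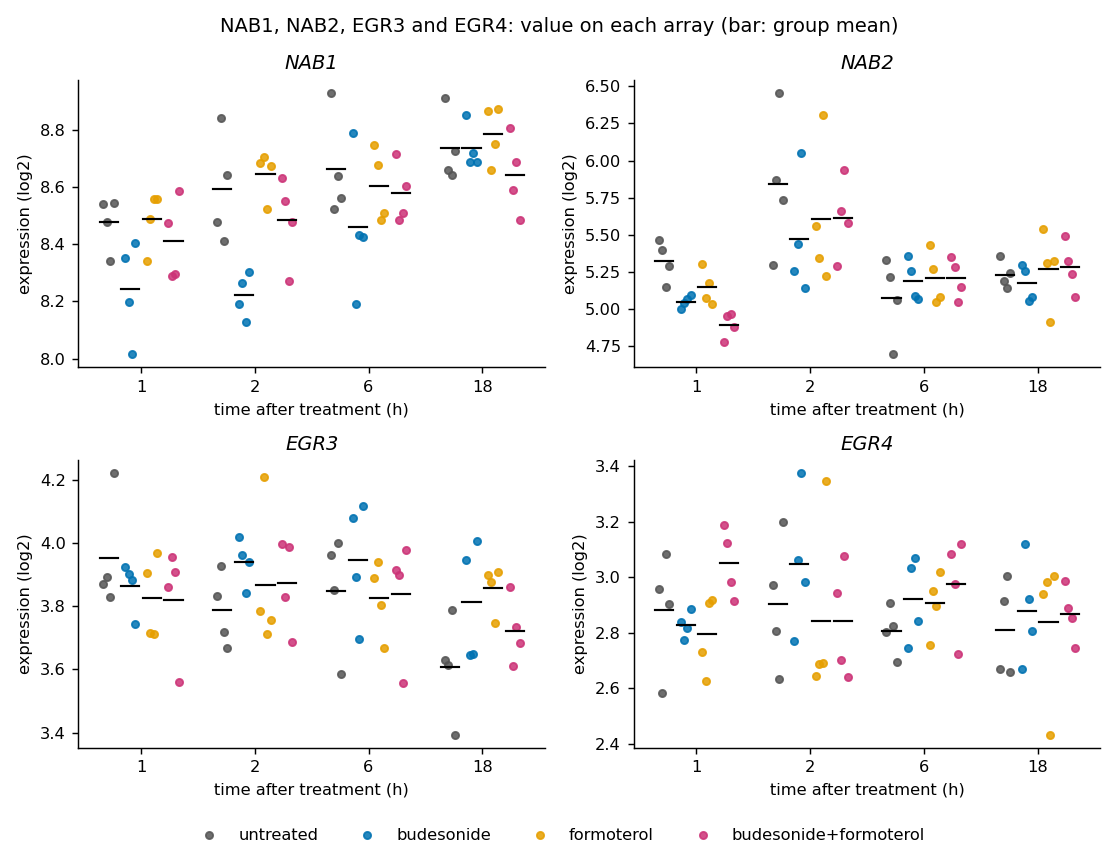
Expression (log2) of NAB1, NAB2, EGR3 and EGR4 on each array against time after treatment (h), with bars at group means. NAB1 is lowest with budesonide at 2 h, NAB2 spreads widely at 2 h in all treatments, and EGR3 and EGR4 stay between 2.43 and 4.22 with no called difference.

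IER3 followed budesonide. It was lower in every group that held budesonide, at each of the 4 times, and was higher with formoterol alone at 1 h. The gene lies at chr6:30743199-30744547. At 1 h untreated arrays read 9.54, 9.60, 9.71 and 9.72 and formoterol arrays read 10.21, 10.08, 10.13 and 10.31. Budesonide arrays read 7.65, 7.56, 7.57 and 8.20 and combination arrays 7.80, 7.42, 7.70 and 8.10. Every formoterol array lay above, and every budesonide and combination array below, the untreated range. IER3 fell by 1.90 ± 0.13 with budesonide (3.73-fold, adjusted p = 1.26e-17) and fell by 1.89 ± 0.13 with the combination (3.70-fold, 6.74e-18). It rose by 0.54 ± 0.13 with formoterol (1.45-fold, adjusted p = 0.0140). This call was lost without untreated replicate 1 (0.0743) or 2 (0.0516) or formoterol replicate 4 (0.0699).

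The budesonide difference in IER3 was larger at 2 and 6 h. At 6 h untreated arrays read 9.17, 9.23, 9.09 and 9.17 and formoterol arrays 9.08, 9.15, 9.13 and 9.17. Budesonide arrays read 6.02, 6.14, 5.89 and 6.12 and combination arrays 5.84, 6.03, 5.95 and 6.21. The array groups with and without budesonide were separated by almost 3 units, and within each pair they overlapped. IER3 fell by 2.74 ± 0.13 at 2 h and by 3.12 ± 0.13 at 6 h with budesonide (6.67-fold and 8.72-fold, adjusted p = 5.83e-25 and 5.36e-28). With the combination it fell by 3.06 ± 0.13 at 2 h (8.32-fold, 9.16e-28) and fell by 3.16 ± 0.13 at 6 h (8.93-fold, 1.12e-28). At 18 h the falls were smaller, -1.99 ± 0.13 with budesonide (3.15e-19) and -1.59 ± 0.13 with the combination (2.42e-15). The effect on IER3 differed between times for budesonide (F test adjusted p = 2.44e-07), the combination (1.3e-11) and formoterol (0.00618).

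At 18 h formoterol arrays read 9.58, 9.58, 9.75 and 10.13 for IER3 and untreated arrays 9.16, 9.24, 9.30 and 9.49. All 4 formoterol arrays were higher, and the difference of 0.46 ± 0.13 did not pass (adjusted p = 0.0681). This difference passed with the replicate number as a block (0.00127), with it within each time (0.000126) and with quantile normalization repeated (0.0494). Not every correlation of same-numbered arrays was over 0.1 in that comparison. With both drugs IER3 lay near its level with budesonide alone at 1 and 6 h. The combination minus budesonide was 0.01 at 1 h (95% interval -0.25 to 0.28), -0.32 at 2 h (-0.59 to -0.05), -0.04 at 6 h (-0.30 to 0.23) and 0.39 at 18 h (0.13 to 0.66), and none passed. With the replicate number as a block the 2 h difference passed at 0.0264 and the 18 h difference at 0.0109, and same-numbered arrays deviated together in both. Adding budesonide to formoterol lowered IER3 by -2.43, -2.82, -3.12 and -2.05 at the 4 times (SE 0.13 each, highest adjusted p = 8.41e-20).

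IER2 also fell in every group that held budesonide at each of the 4 times. The gene lies at chr19:13150411-13154911, and its RefSeq promoter window (GRCh38.p14, chr19:13150161-13150410, plus strand) is shown for comparison with EGR1, with the same letters in capitals.
IER2: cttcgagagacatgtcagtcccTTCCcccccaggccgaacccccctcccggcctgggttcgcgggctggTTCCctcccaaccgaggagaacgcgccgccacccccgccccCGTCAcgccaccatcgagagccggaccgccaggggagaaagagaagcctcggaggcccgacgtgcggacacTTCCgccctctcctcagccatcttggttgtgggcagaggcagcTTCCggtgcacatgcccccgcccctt
It held 4 GGAA matches and 1 TGACG, and no CArG box in these 250 bases. At 1 h untreated arrays read 8.53, 8.43, 8.42 and 8.42, budesonide arrays 7.20, 7.21, 7.07 and 7.64, and combination arrays 7.21, 7.40, 7.41 and 7.39. Formoterol arrays read 8.72, 8.51, 8.74 and 8.71. The arrays with budesonide lay below all others, and formoterol overlapped the untreated arrays at their upper end. IER2 fell with budesonide by 1.17, 1.09, 0.68 and 0.54 at 1, 2, 6 and 18 h (SE 0.08 each, highest adjusted p = 4.08e-07). With the combination it fell by 1.10, 0.87, 0.56 and 0.57 (highest adjusted p = 1.49e-07).

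Formoterol alone gave IER2 differences of 0.22 at 1 h (95% interval 0.05 to 0.38, adjusted p = 0.383), -0.06 at 2 h (-0.22 to 0.11), -0.06 at 6 h (-0.23 to 0.10) and -0.01 at 18 h (-0.17 to 0.16). None passed. The effect on IER2 differed between times for budesonide (F test adjusted p = 1.93e-05) and the combination (0.000234). Untreated IER2 was lower at 6 h (-0.63 ± 0.08, adjusted p = 1.22e-06) and 18 h (-0.53 ± 0.08, 0.000175) than at 1 h. Across the 16 group means IER2 and IER3 correlated at r = 0.906, and IER2 and EGR1 at r = 0.292. These points share arrays and treatments and the values are a description.

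IER5 was the member that fell with formoterol and with the combination, and for which budesonide alone passed at no time. It lies at chr1:181088700-181092900. Its promoter window (RefSeq, GRCh38.p14, chr1:181088450-181088699, plus strand) is shown beside that of IER2.
IER5: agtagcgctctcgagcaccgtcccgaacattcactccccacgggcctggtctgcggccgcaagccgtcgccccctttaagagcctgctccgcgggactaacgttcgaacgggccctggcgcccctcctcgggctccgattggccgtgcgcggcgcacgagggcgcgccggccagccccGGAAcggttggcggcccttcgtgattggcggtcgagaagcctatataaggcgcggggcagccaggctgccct
It held 1 GGAA match, and none of CArG box, TGACG or the EGR motifs. At 1 h untreated arrays read 8.48, 8.73, 8.55 and 8.57, budesonide arrays 8.61, 8.68, 8.45 and 8.70, and formoterol arrays 8.33, 8.36, 8.28 and 8.36. Combination arrays read 7.93, 7.89, 8.08 and 8.17. The combination was lowest without overlap, formoterol came next without overlap, and budesonide overlapped the untreated range. IER5 fell by 0.57 ± 0.09 with the combination at 1 h (1.48-fold, adjusted p = 1.98e-06), while the formoterol difference of -0.25 ± 0.09 did not pass (0.231).

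At 2 h IER5 read 8.49, 8.47, 8.39 and 8.48 untreated, 8.65, 8.44, 8.40 and 8.37 with budesonide, 8.04, 8.03, 8.16 and 7.93 with formoterol and 7.94, 8.11, 7.67 and 8.14 with both. The formoterol and combination arrays lay below all the others and overlapped each other. IER5 fell by 0.42 ± 0.09 with formoterol (1.34-fold, adjusted p = 0.000540) and by 0.49 ± 0.09 with the combination (1.41-fold, 1.43e-05). Its second probe set gave -0.27 for formoterol at 2 h, which did not pass (0.216 over all probe sets), and fell with the combination by 0.54 at 1 h and 0.48 at 2 h. Budesonide gave 0.03 (95% interval -0.15 to 0.20) at 1 h and 0.01 (-0.17 to 0.18) at 2 h. Formoterol minus budesonide was -0.42 ± 0.09 at 2 h (0.000258) and -0.28 ± 0.09 at 1 h (0.0947), the latter passing with the replicate number as a block (0.0451).

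Adding budesonide to formoterol lowered IER5 by -0.31 ± 0.09 at 1 h, at an adjusted p of 0.0499. This was lost without any of the 4 formoterol arrays or without combination replicate 1, 2 or 3 (adjusted p 0.0633 to 0.318). Adding formoterol to budesonide lowered it by -0.59 ± 0.09 at 1 h (1.1e-06) and by -0.50 ± 0.09 at 2 h (2.12e-05). At 6 and 18 h no IER5 difference from untreated cells passed. The combination's effect on IER5 differed between times (F test adjusted p = 0.00284).

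**Figure D4:**
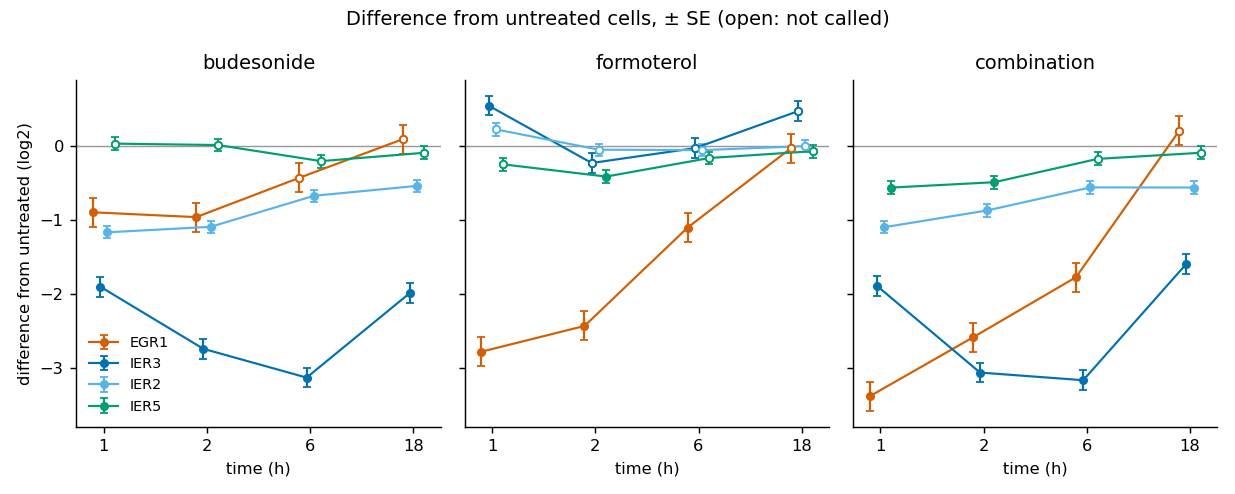
Difference from untreated cells (log2, ± SE) for EGR1, IER3, IER2 and IER5 at 1, 2, 6 and 18 h in 3 panels, for budesonide, formoterol and the combination, with filled points where the difference was called. In the formoterol panel EGR1 climbs from -2.78 to -0.04 while IER3 and IER2 lie between -0.24 and 0.54, and in the combination panel EGR1 and IER3 are both low at 1, 2 and 6 h.

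Counted over the 8 members, 3 fell with budesonide at 1 h, 4 at 2 h, 2 at 6 h and 2 at 18 h, against 0.331%, 2.26%, 8.12% and 9.78% of all genes. The medians of the 8 differences were -0.25, -0.37, -0.21 and -0.03, against -0.02, -0.01, 0.03 and 0.03 over all genes. With formoterol 2 of 8 were called at 1 h, EGR1 lower and IER3 higher (1.34% of all genes), 2 fell at 2 h (2.29%), 1 fell at 6 h (2.06%) and 0 were called at 18 h (1.11%), where 2 had an unadjusted p under 0.05. The combination lowered 4, 4, 3 and 2 members at the 4 times, against 1.13%, 5.65%, 9.95% and 10.7% of all genes, with medians of -0.50, -0.36, -0.13 and -0.02. No member rose with budesonide or with the combination by limma, and 0 were higher at an unadjusted p under 0.05 at any of the 4 times.

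Against budesonide alone, the combination lowered 2, 2 and 1 members at 1, 2 and 6 h, against 0.276%, 1.54% and 2.81% of all genes, and called 0 at 18 h (0.651%; 1 had an unadjusted p under 0.05). Against formoterol alone it lowered 3, 2, 3 and 2 members, beside 0.441%, 1.86%, 7.85% and 8.66% of all genes. Formoterol minus budesonide called 3, 5, 3 and 2 members, with 1.95%, 6.08%, 16.8% and 15.4% of all genes called. IER2 and IER3 were higher with formoterol than with budesonide at each time, by 0.54 to 1.39 for IER2 and 2.44 to 3.09 for IER3. These comparisons share arrays, so their counts are not independent of each other.

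The interaction asks whether the combination departs from the sum of both drugs on the log2 scale. None of the 8 members passed at 1, 2, 6 or 18 h by limma, while 0.171%, 0.59%, 0.722% and 0.276% of all genes did. Of the 32 tests 5 had an unadjusted p under 0.05. The largest departure was that of EGR1 at 2 h, 0.81 ± 0.28 (95% interval 0.26 to 1.36, adjusted p = 0.390), where each drug alone gave a fall and the combination stood near formoterol alone. With the replicate number within each time as a block it passed (0.0374). For IER3 the interaction at 1 h was -0.53 (-0.90 to -0.15) and for IER5 -0.34 (-0.58 to -0.09), and neither passed. The IER3 interaction passed with the replicate number within each time as a block (0.0135). Same-numbered arrays did not deviate together in every comparison at 1 h.

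The genes whose 16 group means ran closest to a member were sought among genes whose group means spanned at least 1 unit. For EGR1 they were DUSP6, a phosphatase that removes phosphate from ERK (r = 0.862), USP30, a deubiquitinase of mitochondria (0.796), and HOXB3, a homeobox factor (0.785), of 1707 candidates. DUSP6 fell with formoterol by 0.79 ± 0.16 at 1 h (adjusted p = 0.00135) and 1.38 ± 0.16 at 2 h (1.98e-09), and with the combination it differed by -0.70 and -1.62, both called. At 6 h DUSP6 gave 0.21 ± 0.16 under formoterol, which did not pass, and fell by 0.66 ± 0.16 under budesonide (0.00225). For IER3 they were RGS3, a regulator of G-protein signalling (r = 0.940), BMP4, a growth factor (0.931), and RAB30, a small GTPase (0.920). RGS3 fell with budesonide by 0.89, 1.52, 1.47 and 1.47 at the 4 times (SE 0.09, highest adjusted p = 1.05e-10). It also fell with formoterol by 0.42 at 1 h (0.00492) and 0.53 at 2 h (3.97e-05). For NAB2, which no comparison called and whose group means spanned 0.94, MNT (0.712), PEDS1 (0.674) and USP36 (0.660) were nearest. Like NAB2, PEDS1 was uneven within its 2 h groups (SD 0.33 to 0.61). All of these r values share the same arrays and treatments.

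**Figure D5:**
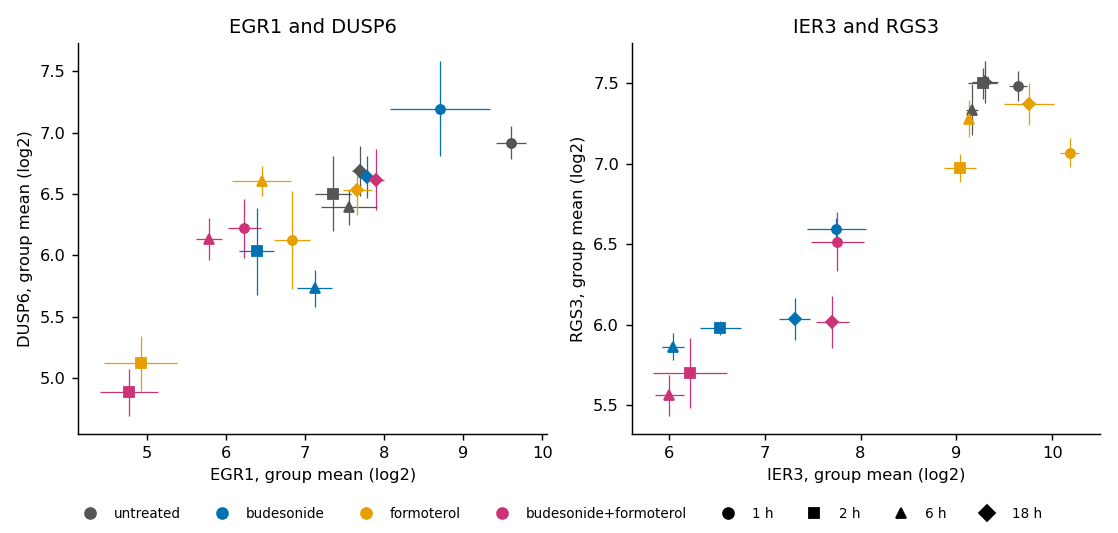
Group means (log2, with SD bars, 4 arrays each) of DUSP6 against EGR1 and of RGS3 against IER3, coloured by treatment and shaped by time. DUSP6 and EGR1 are jointly lowest with formoterol and the combination at 2 h, and RGS3 and IER3 form a low cloud of groups with budesonide and a high cloud without it.

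Genes that ERK signalling induces, many of them its own brakes, were followed as a list of 14. With budesonide at 2 h 7 of 14 were called, 5 higher and 2 lower, against 3.94% of all genes, with a list median of -0.02 beside -0.01. ERRFI1, an inhibitor of the EGF receptor, rose by 2.88 ± 0.12 (adjusted p = 9.96e-29), SPRY1, a Sprouty inhibitor, by 1.15 ± 0.11 (1.41e-12) and PHLDA1 by 0.88 ± 0.17 (0.000109). With formoterol at 1 h 5 were called, 4 higher and 1 lower, against 1.34% of all genes. DUSP6 was the lower gene, while SPRY2 rose by 0.85 ± 0.12 (9.69e-07) and DUSP5, a nuclear ERK phosphatase, by 0.80 ± 0.14 (4.97e-05). With the combination at 6 h 10 were called, 3 higher and 7 lower, against 18.6% of all genes. ERRFI1 rose there by 2.29 ± 0.12, while the ETS factor ETV1 fell by 1.56 ± 0.13 and DUSP5 by 1.22 ± 0.14 (adjusted p = 1.39e-24, 9.73e-16 and 8.25e-11).

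IER5L is a gene of the same list named for its likeness to IER5. It fell with budesonide by 0.92, 0.81, 0.67 and 0.94 at the 4 times (SE 0.14, highest adjusted p = 0.000169). It rose with formoterol by 1.04 at 1 h (9.31e-08), 0.89 at 2 h (2.55e-06) and 0.61 at 6 h (0.00199). With the combination it fell by 0.81, 0.83, 0.93 and 0.87.

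Of 22 genes of the ERK cascade and the serum response factor machinery 17 were measured. By limma none was called at 1 h with budesonide, formoterol or the combination, and 1 in each comparison had an unadjusted p under 0.05. Over all genes, formoterol called 1.34% at 1 h, and budesonide and the combination lowered 0.331% and 1.13%. At such low shares the absence of calls among 17 genes says little. At 2 h formoterol lowered 2, against 2.29% of all genes. These were MRTFB, a coactivator of serum response factor, which fell by 0.40 ± 0.09 (adjusted p = 0.00272), and SOS1, an activator of RAS, which fell by 0.28 ± 0.08 (0.0215). At 6 h budesonide called 4, 2 in each direction, against 14.2% of all genes, and the combination 5, 2 higher and 3 lower, against 18.6%. The kinase gene RPS6KA3 fell by 0.65 ± 0.15 with budesonide (0.000652), and EGFR, the EGF receptor, rose by 0.33 ± 0.09 (0.00528) with budesonide and by 0.70 ± 0.09 (3.39e-09) with the combination. MRTFA rose by 0.41 ± 0.14 (0.0389) with budesonide and by 0.51 ± 0.14 (0.00490) with the combination.

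Of 16 genes described as EGR1 targets 14 were measured. At 1 h, when EGR1 was lowest relative to untreated cells, none fell with formoterol by limma, 0 were lower at an unadjusted p under 0.05, and VEGFA rose. Formoterol called 1.34% of all genes at 1 h, in either direction. At such a low share the absence of falls among 14 genes says little, and whether these genes follow EGR1 was not tested. At 6 h budesonide lowered 6, against 8.12% of all genes, and 0 were higher even at an unadjusted p under 0.05, with a list median of -0.31 beside 0.03 over all genes. F3, tissue factor, fell by 2.87 ± 0.17 (adjusted p = 2.45e-21), VEGFA, an angiogenic factor, by 1.02 ± 0.14 (3.26e-08) and PLAU, urokinase, by 0.97 ± 0.11 (1.11e-10). At 6 h formoterol called 3, against 4.81% of all genes. F3 fell by 1.27 ± 0.17 (8.73e-08), and the stress cytokine GDF15 and the heparanase gene HPSE rose by 0.68 ± 0.15 (0.000805) and 0.40 ± 0.11 (0.0129). With the combination at 18 h 8 were called, 2 higher and 6 lower, against 21% of all genes, and F3 fell by 3.54 ± 0.17 (9.44e-26).

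Among other immediate early genes calls ran in both directions. Of 14 listed 12 were measured. With formoterol at 2 h 8 were called, 5 higher and 3 lower, against 4.6% of all genes, with a list median of 0.26 beside 0.00. The orphan receptor gene NR4A1 rose by 3.12 ± 0.31 (adjusted p = 9.52e-12), ATF3, a stress-induced bZIP factor, by 1.81 ± 0.12 (2.02e-18) and TRIB1, a pseudokinase gene, by 1.01 ± 0.10 (9.36e-12). With the combination at 2 h 7 were called, 6 higher and 1 lower, against 9.49% of all genes, and ZFP36, an mRNA decay factor, rose by 2.11 ± 0.12 (4.6e-22). With budesonide at 6 h 7 were called, 4 higher and 3 lower, against 14.2% of all genes. ZFP36 rose by 1.39 ± 0.12 (1.57e-14) and the matricellular gene CCN1 fell by 0.80 ± 0.08 (1.51e-11).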

How the data were processed

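The authors deposited log2 expression per probe set for 64 Affymetrix arrays, made with RMA per the submitters' processing notes, with no version given in the sources used here. RMA normalizes across arrays, so overall shifts in RNA are removed. Probe sets were named from GEO's platform annotation (44994 had 1 symbol, 1832 several and 2569 none), and 1 per gene was kept. Members, lists and rules were chosen with earlier results of these data known. Group means were fitted with limma 3.58.1 in R 4.3.3 (intensity trend, 48 residual degrees of freedom) over all genes, with 2-sided tests and Benjamini-Hochberg adjustment within each of 31 comparisons; formoterol against budesonide (4 of them) was added after seeing the data. The scripts were tested on simulated data. Named genes were the members, the 3 genes nearest in pattern to EGR1, IER3 and NAB2, and, per list and treatment, up to 3 called genes with the largest difference at the time with most calls; IER5L and the DUSP6, RGS3, VEGFA and ZFP36 comparisons at further times were chosen after their values were seen. Labels share replicate numbers. Same-numbered arrays deviated together (every correlation of residuals over 0.1) in 13 of 24 comparisons within a time, and there blocked values stand beside the results where a call changed. Motifs were searched in RefSeq promoter windows with Python 3.11.15; 6 of 8 members had a window, and EGR3 and IER3 had none. Alternatives are in the closing section.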

Additional observations from a re-analysis of the deposited data

Results flagged for a closer look

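In 128 groups of 4 arrays, 8 genes in 16 groups, a single array stood apart from the other 3 in 15 groups, where chance flags about 1 in 20 groups. For EGR1, untreated replicate 3 at 2 h read 7.02 against 7.44 to 7.48 in the others, and untreated replicate 1 at 18 h read 7.84 against 7.63 to 7.66. For IER3, budesonide replicate 4 at 1 h read 8.20 against 7.56 to 7.65. For IER2 this held for untreated replicate 1 at 1 h (8.53), formoterol replicate 2 at 1 h (8.51), combination replicate 1 at 1 h (7.21) and untreated replicate 4 at 6 h (7.74). For IER5 it held for untreated replicate 2 at 6 h (8.37), budesonide replicate 3 at 18 h (8.12) and combination replicate 3 at 18 h (8.07). For NAB1 it was formoterol replicate 3 at 2 h (8.52). The dim EGR3 had untreated replicate 4 at 1 h (4.22) and formoterol replicate 2 at 2 h (4.21), and EGR4 had formoterol replicate 4 at 2 h (3.35) and replicate 3 at 18 h (2.43).

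A treatment's effect differed between the 4 times in 9 of 24 tests, by limma's F test adjusted over all genes. These were EGR1, IER2 and IER3 with budesonide (adjusted p = 0.0107, 1.93e-05 and 2.44e-07), EGR1 and IER3 with formoterol (9.16e-12 and 0.00618), and EGR1, IER2, IER3 and IER5 with the combination (5.43e-16, 0.000234, 1.3e-11 and 0.00284). Of all genes, 12.7% passed this test for budesonide, 4.51% for formoterol and 22.6% for the combination.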

How the results depend on the processing

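The 62 calls among 248 pairs of a member and a comparison were refitted under 10 other settings and without each array in turn, and none reversed. Of these, 9 lost their call under another setting and 6 without a single array. The probe set with the highest variance ended 7, among them EGR1 with budesonide at 1 h (-0.92, adjusted p = 0.112), IER5 with formoterol at 2 h (-0.27, 0.233) and NAB1 with budesonide at 2 h (-0.42, 0.914). Without all replicate 1 arrays 4 were lost, among them IER3 with formoterol at 1 h (0.49, 0.294).

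Without each array in turn, the members called over the 4 times numbered 10 to 12 for budesonide (11 with all arrays), 4 to 6 for formoterol (5), 13 for the combination (13), 5 to 6 for the combination against budesonide (5), 9 to 10 against formoterol (10), 0 for the interaction (0), 12 to 14 for formoterol against budesonide (13) and 5 to 6 for untreated cells over time (5). With the replicate number as a block the combination against budesonide called 8 and untreated cells over time 10. With it as a block within each time these were 8 and 13, and the interaction called 2. The shares of all genes called in the blocked fits were not taken, so these higher counts cannot be weighed against them. The block ended none of the 62 calls. Some calls gained with the block within each time came where not every correlation of same-numbered arrays was over 0.1. Among them were IER3 with formoterol at 18 h (adjusted p = 0.000126) and NAB2 with the combination at 1 h (0.00240). EGR3 and EGR4 lay below the array median, which limits what their probe sets can show.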
